A study of Mus musculus with 4 samples.

Results

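The liver of mice that had eaten a high-fat, high-sucrose (HFHS) diet for 10 weeks was set against the liver of mice that had eaten it for 5 weeks. These are 2 of the 4 arrays of the series, with 1 array at each time. Of the 34761 genes with a probe on the array, the 17122 whose signal was well above background on both arrays were compared. The animals were male C57BL/6 mice, a standard inbred strain, and all began the diet at an age of 5 weeks. The 5-week array is therefore liver from animals aged 10 weeks, and the 10-week array is liver from animals aged 15 weeks. The arrays share the strain, the sex and the diet, and no gene was altered in either. The series describes 4 mice at each time, and the labels do not state whether an array carries the RNA of 1 mouse or of several. Time on the diet and age cannot be told apart here, since no age-matched animals on ordinary chow enter the comparison.

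With 1 array at each time there is no replicate check, so no test was made and no p-value is given. Every value below describes a pair of arrays. A gene is called higher or lower where its scaled signal differed at least 2-fold. Levels are on a log2 scale where 0 is the 75th percentile of the signals of that array, so a difference of 1 is 2-fold. The level at 15 weeks stands beside some genes as a value only.

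The liver handles dietary fat and sugar mainly in hepatocytes, which burn fatty acids in mitochondria and peroxisomes, store them as triglyceride in lipid droplets and turn sugar into glycogen and new fatty acids. Hepatocytes also carry cytochromes P450, which oxidise drugs, steroids and bile acids and are controlled in part by the nuclear receptors CAR and PXR. Around them lie Kupffer cells, the resident macrophages, and the portal tracts and larger vessels, with bile duct epithelium, smooth muscle and collagen.

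The arrays were alike in quality. The processed signal had its 75th percentile at 208 units at 5 weeks and at 194 units at 10 weeks, and 44.5% and 44.6% of spots were well above background. No spot was saturated. For the 256 probes spotted repeatedly, the median spread of the 10 to 5 week difference between spots was 0.10 (SD, log2), which covers spotting and scanning error but not the spread between animals. Hepatocyte markers bore out the labelled tissue: 16 of 17 were measured, their summed level was 18319 at 5 weeks and 19805 at 10 weeks (linear scale, 1 = the 75th percentile), and none differed 2-fold. Some probes lay in patches of the slide where neighbouring spots were brighter on 1 array, at least 5 of 44 neighbours being 2-fold above the other arrays. Such spots are called locally bright here. Such spots carried 1026 measured genes (5.99%), with 21 among those called higher and 40 among those called lower.

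Most genes differed little between 5 and 10 weeks. Called higher at 10 weeks were 161 genes (0.94%), called lower were 194 (1.13%), and these 355 made up 2.07% of the 17122, while 16767 were within 2-fold. Differences of 4-fold or more numbered 15 upward and 30 downward. The median difference over all measured genes was 0.02, and the middle 50% lay between −0.15 and 0.19. Dim genes were called more often: 163 of the 4281 genes below the 25th percentile of level (3.81%) differed 2-fold, against 192 of the other 12841 (1.495%).

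**Figure D1:**
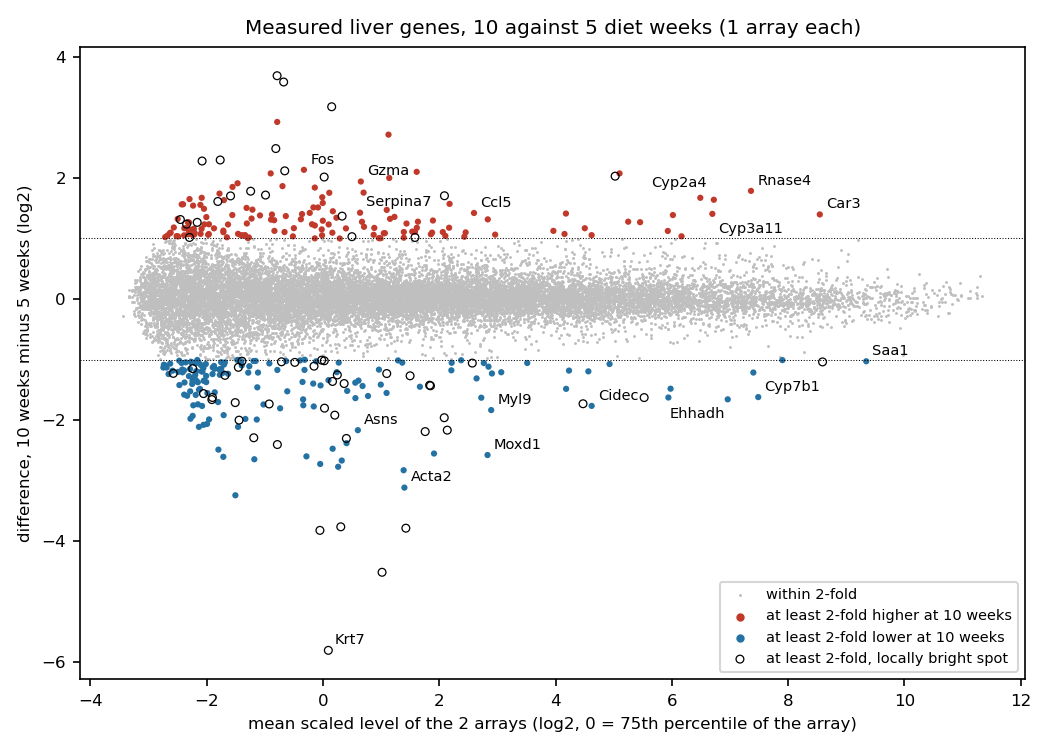
Each point is 1 of the 17122 measured genes, with its mean scaled level over both arrays on the x axis (log2) and its difference between 10 and 5 weeks on the y axis (log2); dotted lines mark 2-fold, colours mark the 161 higher and 194 lower genes, and open circles mark called genes at locally bright spots. The spread is widest among dim genes, and the lowest point, Krt7, is a locally bright spot.

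Smooth muscle genes were among the largest differences, all lower at 10 weeks. Acta2, the smooth muscle actin that also marks activated stellate cells, had a level of 2.96 at 5 weeks and −0.16 at 10 weeks, a difference of −3.12 or 8.67-fold, and 2.41 at 15 weeks. Its probe lies at chr19:34316060-34316119 on the minus strand (mm9). Myl9, the regulatory light chain of smooth muscle myosin, went from 3.81 to 1.98 and stood at 3.28 at 15 weeks. Tagln, the actin-binding protein transgelin, went from 3.67 to 2.46 and stood at 4.13 at 15 weeks. All 3 were thus lowest on the 10-week array of the 3 arrays shown.

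Of the 18 smooth muscle contractile genes listed, 13 were measured. At least 2-fold lower were 3 (23.1%), beside 1.13% of all measured genes, and none was higher. The median difference was −0.40 beside 0.02 over all measured genes. Another 4 were above background only at 5 weeks. Cnn1, calponin, had a level of 1.59 at 5 weeks and was at least 35.8-fold lower at 10 weeks. Actg2, the enteric smooth muscle actin, was at least 30.4-fold lower, Myh11, the smooth muscle myosin heavy chain, at least 5.75-fold and Synpo2, an actin-bundling protein, at least 2.89-fold. These folds are lower bounds, because the dim array gives only a ceiling. At the other end of the list, Tpm1 and Tpm2, the tropomyosins, were higher by 0.40 and 0.54. The 4 measured vascular smooth muscle markers had a summed level of 24.8 at 5 weeks and 9.79 at 10 weeks. In whole liver, fewer cells of a type and less RNA per cell cannot be told apart.

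The Myl9 promoter is shown because it was the only promoter found for this list to hold a CArG box, the element bound by serum response factor. The 250 bases before the start site, chr2:156775214-156775463 on the plus strand (RefSeq, GRCm38.p6), are printed with the match in capitals.

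Myl9: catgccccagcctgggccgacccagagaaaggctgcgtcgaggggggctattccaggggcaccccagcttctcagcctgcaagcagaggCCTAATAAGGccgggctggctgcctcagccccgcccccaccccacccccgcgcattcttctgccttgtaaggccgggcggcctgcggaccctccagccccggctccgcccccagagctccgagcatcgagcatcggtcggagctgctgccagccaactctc

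The CArG box, searched on both strands, was present in 1 of 16 promoters of the list (6.25%) and in 482 of 32851 promoters of the same length (1.47%). RefSeq held a promoter for 14 of the 18 genes. The Acta2 and Cnn1 promoters held no match in these 250 bases.

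Matrix and bile duct genes went the same way. Of 34 collagen and matrix genes, 26 were measured. At least 2-fold lower were 5 (19.2%), beside 1.13% of all measured genes, and none was higher. Above 0 were 3 of 26, with a median of −0.44 over the 26. Col1a1 and Col1a2, the chains of type I collagen, were lower by 2-fold or more: Col1a1 went from 1.54 to 0.38 and stood at 3.996 at 15 weeks, and Col1a2 went from 4.04 to 2.98 and stood at 5.68. Dpt, the matrix protein dermatopontin, went from −0.15 to −1.90. Fbln1, a fibulin, differed by −1.05, and Mmp2, a gelatinase, by −1.03 at a locally bright spot. Fn1 (0.09, at a locally bright spot), Col18a1 (0.15) and Timp1 (0.44) were the members above 0.

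Of 18 bile duct markers, 16 were measured, with a median of −0.32. At least 2-fold lower were 5 (31.25%), beside 1.13% of all measured genes, and none was higher. Krt19, a cytokeratin of bile duct epithelium, went from 0.67 to −0.76 and stood at 1.03 at 15 weeks. Prom1, the surface marker CD133, went from 0.49 to −1.17, Tspan8 differed by −1.35 and Krt23 by −1.01. Krt7 differed most, by −5.80, but its spot had 9 locally bright neighbours at 5 weeks. Sox9, a transcription factor of this epithelium, was not lower (0.11). The summed level of the measured bile duct markers was 101 at 5 weeks and 86.4 at 10 weeks, and 92.8 and 85.8 without those at locally bright spots. Onecut2, a transcription factor that hepatocytes also express, is in these sums and stood at 5.95 on both arrays.

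Other genes above background at 5 weeks only included epithelial and fat-cell products. Dmbt1, a secreted scavenger receptor of mucosal epithelia, had a level of 5.08 at 5 weeks and was at least 403-fold lower at 10 weeks, when it was not well above background, as also at 15 weeks. Its probe lies at chr7:138265063-138265122 (mm9). Tff2, a trefoil peptide, was at least 7.08-fold lower. Of the adipocyte markers, 3 of 11 were above background only at 5 weeks: Adipoq, the hormone adiponectin (at least 6.09-fold lower), Retn, resistin (at least 4.03-fold), and Plin1, a lipid droplet coat protein of fat cells (at least 1.93-fold). Lep, leptin, was not well above background on either array. The 5 measured adipocyte markers did not share a direction: Cidec and Fabp4 were lower, Cfd, adipsin, differed by 0.16, Adrb3 by 0.38 and Car3 by 1.40, with a median of 0.16. Tnnt2, cardiac troponin T, and Pdlim3, a Z-disc protein, were at least 13.7-fold and 8.29-fold lower. The part of fat-cell and mucosal tissue in the smooth muscle, matrix and bile duct differences was not tested.

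No stellate or endothelial marker passed 2-fold. Of 17 measured stellate and fibroblast markers 14 were below 0, and the median was −0.30, with Des, desmin, at −0.97 and Lrat, the retinol-esterifying enzyme of quiescent stellate cells, at 0.22. The 18 sinusoidal endothelial markers had a median of −0.16.

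**Figure D2:**
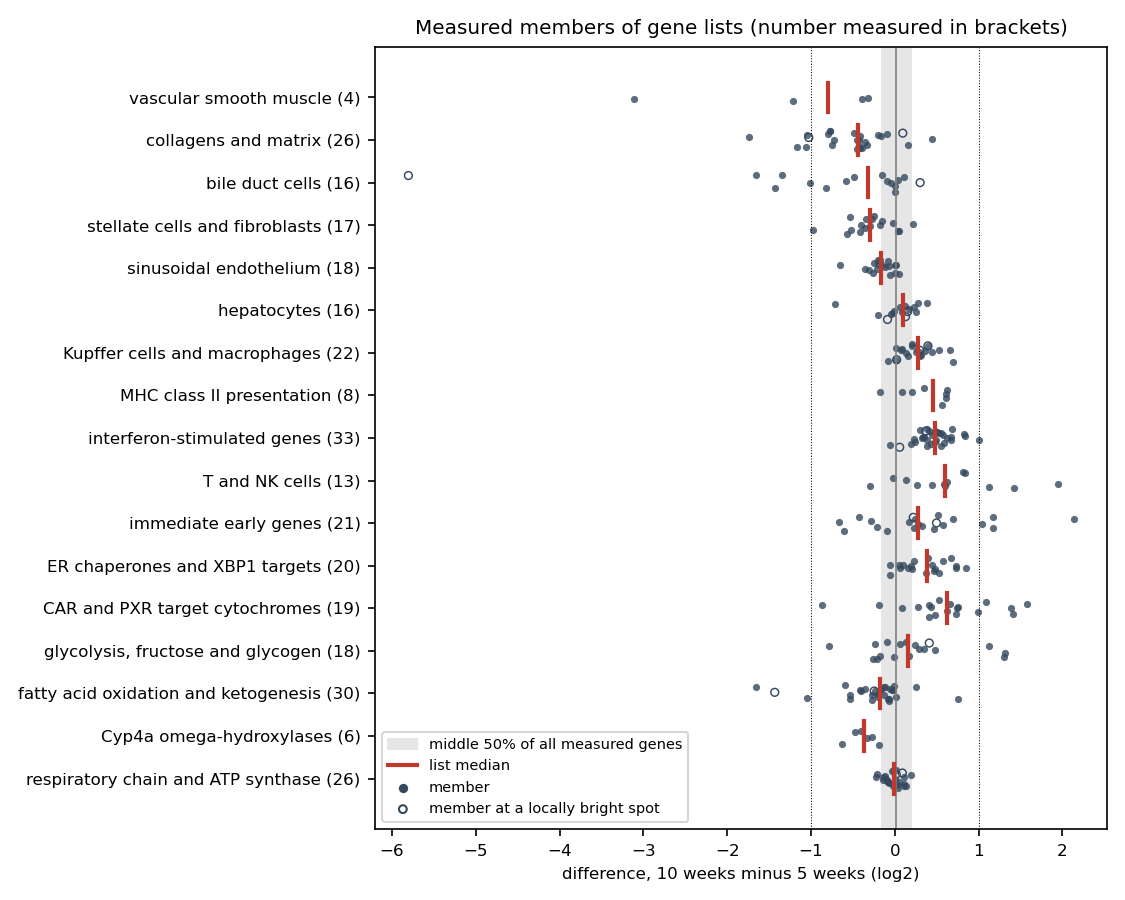
Each point is a measured member of the list named at the left (number measured in brackets), placed by its difference between 10 and 5 weeks (log2, x axis); red bars are list medians, the grey band is the middle 50% of all measured genes, dotted lines mark 2-fold and open circles are locally bright spots. Matrix, smooth muscle and bile duct members lie mostly left of the band, interferon, T and NK cell and CAR and PXR members mostly right of it, and the respiratory chain inside or near it.

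Genes that respond to CAR and PXR were mostly higher at 10 weeks. Of 28 genes listed, 19 were measured, and 17 of 19 were above 0, with a median of 0.63. At least 2-fold higher were 4 (21.1%), beside 0.94% of all measured genes, and none was lower. In a split made after the values were seen, the 10 measured cytochromes P450 were all above 0 and included the 4, with a median of 0.82. The 9 others, transferases, transporters and further enzymes, had a median of 0.41 and ranged from −0.87 for Sult5a1, a sulfotransferase, to 0.75 for Gstm3, a glutathione transferase. Meg3, a non-coding RNA, was above background only at 5 weeks, at least 2.48-fold lower. Cyp3a11, the main mouse drug-oxidising enzyme of its family, had a level of 5.99 at 5 weeks, 7.40 at 10 weeks and 8.09 at 15 weeks. Another Cyp3a11 probe gave 1.45 beside the 1.41 of the probe used (chr5:146666237-146666296, minus strand, mm9). Cyp3a16 went from 1.39 to 2.96 and Cyp3a41b from −0.85 to 0.83. These Cyp3a genes are near-identical, and a probe may read more than 1 of them.

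Several Cyp2 genes went the same way. Others differed little: Cyp2e1 by 0.08, Cyp2f2 by 0.02, Cyp2d9 by −0.17 and Cyp2c70 by −0.19. Cyp2c38 went from 5.32 to 6.71, Cyp2c39 from 0.52 to 1.61 and Cyp2c37 from 4.65 to 5.64, and on the 15-week array these 3 stood at 5.69, 1.14 and 3.95. Cyp2b10, the classical CAR target, was above background only at 10 weeks of this pair, at −1.22, at least 4.67-fold higher than at 5 weeks, and it stood at 2.33 at 15 weeks. Cyp2a4, a steroid 15α-hydroxylase of female-biased expression, went from 5.90 to 7.54, and another probe gave 1.76. Its near copy Cyp2a5 had no matched probe, so the 2 genes cannot be told apart. Alas1, the first enzyme of haem synthesis, was higher by 0.63, while Por, the electron donor of these enzymes, differed by −0.19. The transcripts of the receptors themselves, Nr1i3 (CAR) and Nr1i2 (PXR), differed by 0.36 and −0.05.

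Conjugating enzymes were spread around a median of 0.20, with 20 of 25 measured members above 0. Sult1c2, a sulfotransferase, was the only one at least 2-fold higher, going from 0.81 to 2.06. The glutathione transferases Gstt3 and Gsta3 differed by 0.997 and 0.97, just inside the 2-fold mark. Sult1e1, the oestrogen sulfotransferase, was lower by 2.40 at a locally bright spot. Gclc, the rate-limiting enzyme of glutathione synthesis, went from 4.95 to 5.71 among the NRF2 and antioxidant genes, of which 23 were measured with a median of 0.13.

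Steroid and bile acid enzymes moved in both directions. Cyp7b1, the oxysterol 7α-hydroxylase of the acidic bile acid pathway, had levels of 8.30, 6.68 and 5.28 at 5, 10 and 15 weeks, a 3.07-fold difference between the first pair (probe at chr3:17972286-17972345, mm9). Akr1d1, the Δ4-3-ketosteroid 5β-reductase of bile acid synthesis, was higher, from −0.39 to 0.71. Cyp7a1, the rate-limiting enzyme of the classical pathway, differed by 0.49 and Cyp8b1, which sets the cholic acid share, by −0.72. Over 22 measured bile acid genes the median was 0.08.

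Genes that differ between the sexes showed no single direction. Moxd1, a copper monooxygenase higher in male liver, went from 4.12 to 1.54 and was not well above background at 15 weeks (probe at chr10:24022208-24022266, mm9). The male-biased list had 24 measured members with a median of −0.16, of which Moxd1 and Cyp7b1 were past 2-fold downward and Serpine2, a protease inhibitor, upward. The major urinary proteins, pheromone carriers of male liver, had a median of 0.06 over 8 measured members. Of 12 measured female-biased genes, 2 were higher (Cyp2a4 and Cyp3a16) and 3 lower (Sult1e1 at a locally bright spot, Prom1 and Cyp17a1, a steroid 17α-hydroxylase), with a median of 0.03. The growth hormone and IGF axis list had 18 measured members, 11 of them above 0, with a median of 0.14. At least 2-fold lower were 2 (11.1%), beside 1.13% of all measured genes, and none was higher. Socs2, a feedback inhibitor of the growth hormone receptor, went from 2.39 to 0.94. Igfbp3, a carrier of IGF1, went from −1.29 to −2.44, a difference of −1.15. Igf1 differed by −0.17, while Bcl6 differed by 0.67 and Prlr by 0.58. The 26 measured nuclear receptors and hepatocyte factors had a median of 0.03.

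**Figure D3:**
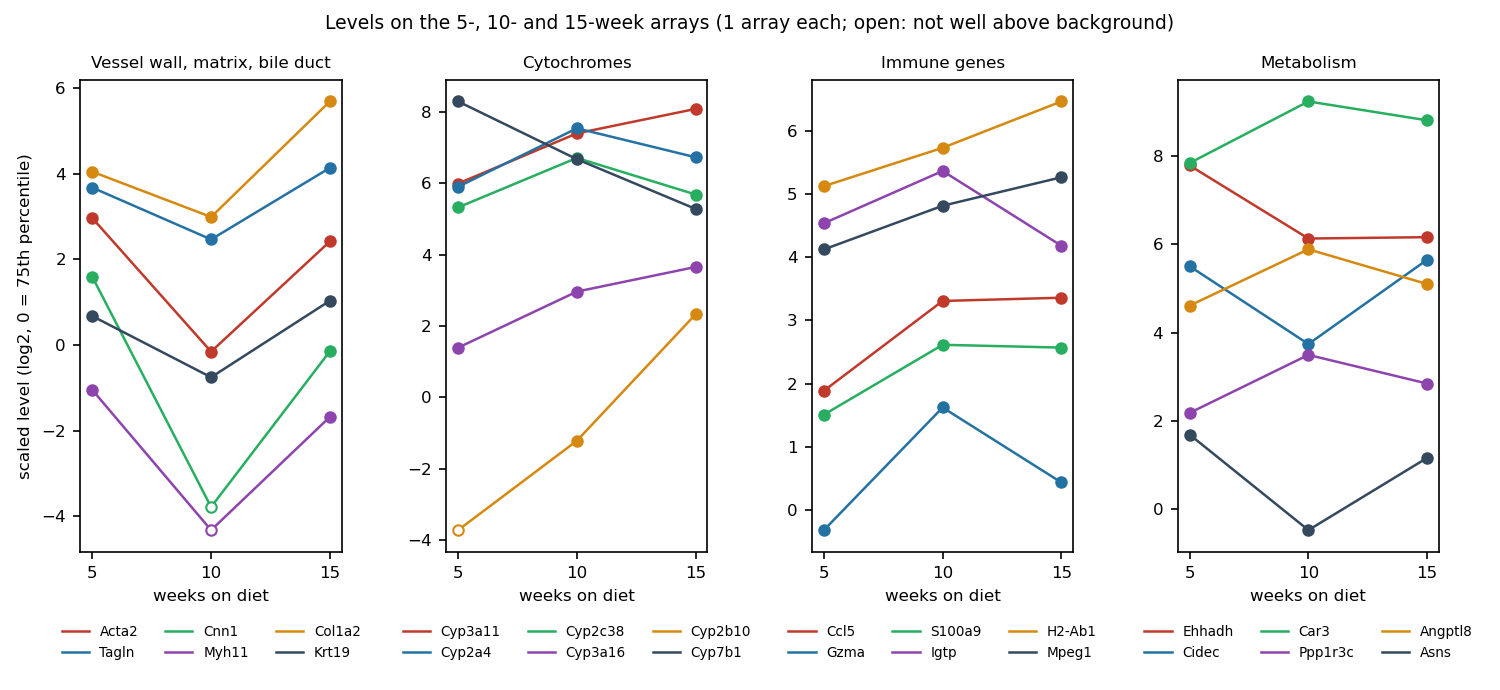
Scaled levels (log2, y axis, 0 = the 75th percentile of the array) of named genes on the 5-, 10- and 15-week arrays (x axis, weeks on diet), 1 array each, with open circles where the gene was not well above background. Smooth muscle, matrix and bile duct genes in the left panel dip at 10 weeks, Cyp3a11, Cyp3a16 and Cyp2b10 are higher on each later array, and Cyp7b1 is lower on each.

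Interferon-stimulated genes were slightly higher at 10 weeks as a group. Of 33 measured, 32 were above 0 and the median was 0.48 beside 0.02 over all measured genes, but only Gbp6, a guanylate-binding protein, reached 2-fold, from 0.49 to 1.49. Oasl1, an oligoadenylate synthetase-like protein, went from 4.05 to 4.89 and Igtp, an immunity-related GTPase, from 4.54 to 5.37. Ifit1, an RNA-binding antiviral protein, went from 0.35 to 1.02. Ifi27l2a, at −0.06, was the only member below 0.

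Promoters of 3 members are printed because the interferon response element recurs in this list. Each line gives the 250 bases before the start site with every match to the interferon response element (GAAA, any 2 bases and GAAA again), on either strand, in capitals. They are Isg15, a ubiquitin-like modifier (chr4:156200819-156201068, minus strand), Ifit3 (chr19:34583279-34583528, plus strand) and Irgm1, an immunity-related GTPase (chr11:48871421-48871670, minus strand), all from RefSeq, GRCm38.p6.

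Isg15: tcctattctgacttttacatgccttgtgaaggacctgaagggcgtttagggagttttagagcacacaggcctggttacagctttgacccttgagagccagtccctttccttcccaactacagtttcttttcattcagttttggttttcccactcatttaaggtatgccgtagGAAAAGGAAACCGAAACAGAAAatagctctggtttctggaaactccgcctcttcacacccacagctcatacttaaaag

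Ifit3: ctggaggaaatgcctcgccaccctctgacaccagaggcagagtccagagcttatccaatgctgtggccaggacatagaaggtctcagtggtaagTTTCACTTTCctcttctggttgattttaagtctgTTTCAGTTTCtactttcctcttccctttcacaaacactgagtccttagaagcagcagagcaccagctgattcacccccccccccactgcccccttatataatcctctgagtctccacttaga

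Irgm1: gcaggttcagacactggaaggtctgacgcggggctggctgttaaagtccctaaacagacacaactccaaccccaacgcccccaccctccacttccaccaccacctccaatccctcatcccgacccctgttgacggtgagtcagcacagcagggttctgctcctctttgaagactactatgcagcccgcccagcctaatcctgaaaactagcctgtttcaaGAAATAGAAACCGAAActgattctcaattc

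In these windows Isg15 held 3 overlapping matches and Ifit3 and Irgm1 2 each. On the arrays Isg15 differed by 0.35, Ifit3 by 0.48 and Irgm1 by 0.49. The element was present in 13 of 27 promoters of the list (48.1%), from 13 of the 24 genes with a promoter, and in 978 of all 32851 promoters (2.98%). The list was drawn up from known interferon-stimulated genes, so the share of 48.1% is no result about these arrays. The presence of the letters says nothing of binding in these livers.

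Several lymphocyte and chemokine genes were higher too. Gzma, granzyme A, a protease of cytotoxic lymphocytes, went from −0.32 to 1.62, a 3.84-fold difference, and stood at 0.43 at 15 weeks (probe at chr13:113884035-113884094, mm9). Ccl5, a chemokine of T cells, went from 1.89 to 3.31 and stood at 3.36. Cd7 differed by 1.13, and Gzmb, granzyme B, was above background only at 10 weeks, at least 4.21-fold higher, while Cd8b1, a chain of the T cell co-receptor CD8, was above background only at 5 weeks, at least 1.60-fold lower. Of 21 T and NK cell markers, 13 were measured. At least 2-fold higher were 3 (23.1%), beside 0.94% of all measured genes, and none was lower. The 13 measured markers had a median of 0.60. Their summed level was nearly level, 57.0 and 59.3, and Cd3e, a defining T cell gene, differed by −0.02 and Cd4 by −0.30. Cd8a, Klrb1c and Ncr1 were not well above background on either array.

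Of 21 measured chemokines and cytokines, 3 (14.3%) were at least 2-fold higher (Ccl5, Ccl4 and Cxcl1), beside 0.94% of all measured genes. None was lower, and the median was 0.51. Cxcl9 and Cxcl10, chemokines that interferon gamma induces, differed by 0.95 and 0.80, and Ccl2, which draws monocytes, by 0.97. Il6 and Tnf were not well above background on either array. S100a8 and S100a9, calcium-binding proteins of neutrophils, were higher by 1.32 and 1.11, while Ly6g, a defining neutrophil gene, differed by 0.31, Camp by 0.00 and Csf3r, the G-CSF receptor, by −0.16 at a locally bright spot. Retnlg and Cxcr2 were above background only at 10 weeks (at least 1.83-fold and 1.28-fold higher) and Ltf, lactoferrin, only at 5 weeks, at a locally bright spot. The summed level of the 5 measured neutrophil markers was 52.2 at 5 weeks and 51.4 at 10 weeks. Csf3r was the brightest of them, and without it the other 4 summed to 4.43 at 5 weeks and 8.63 at 10 weeks.

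Most macrophage genes were higher by less than 2-fold. Of 22 measured Kupffer cell and macrophage markers, 21 were above 0 and none differed 2-fold, with a median of 0.27. Cd163, a scavenger receptor of resident macrophages, was above background only at 5 weeks, at least 1.68-fold lower. Mpeg1, perforin-2, went from 4.12 to 4.81, Timd4, a receptor of resident Kupffer cells, differed by 0.65 and Clec4f, another such receptor, by 0.29. Class II antigen presentation genes had a median of 0.45 over 8 measured: H2-Ab1 went from 5.12 to 5.73 and stood at 6.47 at 15 weeks, and Cd74, the invariant chain, differed by 0.34. Markers of lipid-associated macrophages had a median of 0.02 over 11 measured. Of these, 1 was at least 2-fold lower, at a locally bright spot, and none was higher. Another 1 was above background only at 5 weeks. Trem2, the receptor that defines them, differed by 0.02 at a locally bright spot, and the 15-week array had it at 3.27 beside 0.36 at 10 weeks.

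Fatty acid oxidation genes were lower on balance. Of 30 measured, 3 (10%) were at least 2-fold lower, beside 1.13% of all measured genes, and none was higher. Above 0 were 3, and the median was −0.18. Ehhadh, the bifunctional enzyme of peroxisomal β-oxidation, had levels of 7.79, 6.13 and 6.16 at 5, 10 and 15 weeks, a 3.15-fold difference between the first pair (probe at chr16:21761914-21761973, mm9). Fgf21, a fasting hormone of the liver, went from 2.74 to 1.69 and stood at 2.88 at 15 weeks. Pdk4, which restrains glucose oxidation, was lower by 1.43 at a locally bright spot. Cpt1a, the gate of mitochondrial fatty acid entry, differed by −0.54, and Acadm, the medium-chain acyl-CoA dehydrogenase, by −0.06.

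All 6 measured Cyp4a ω-hydroxylases were below 0 and none differed 2-fold, with a median of −0.37. The family includes targets of the lipid sensor PPARα, and its members Cyp4a12a and Cyp4a12b are also on the male-biased list. Cyp4a14 went from 10.17 to 9.69 and Cyp4a10 from 10.08 to 9.81. The transcript of the receptor, Ppara, differed by −0.03. Respiratory chain and ATP synthase genes barely differed: their 26 members lay between −0.23 and 0.19, with a median of −0.02.

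Several genes of glucose use were higher. Ppp1r3c, a glycogen-targeting subunit of protein phosphatase 1, went from 2.18 to 3.49 and Pfkfb3, which makes the activator of glycolysis, from 1.24 to 2.54. Both are among the 3 of 18 measured members (16.7%) of the glycolysis, fructose and glycogen list that were at least 2-fold higher. Over all measured genes the share was 0.94%. No member was at least 2-fold lower, and the list median was 0.15. Gys2, liver glycogen synthase, differed by −0.79. Angptl8, a feeding-induced inhibitor of lipoprotein lipase, went from 4.61 to 5.89. Gluconeogenic genes had a median of −0.23 over 16 measured, and none differed 2-fold: G6pc differed by −0.27, and Pck1 by −0.20 at a locally bright spot. Feeding state at sampling is not given in the labels.

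Lipid synthesis genes showed no shared direction. None of 21 measured fatty acid synthesis genes differed 2-fold and their median was 0.00, with Srebf1, the lipogenic transcription factor, at 0.74 and Scd1, the stearoyl-CoA desaturase, at 0.66, while Acacb was at −0.71 and Fasn at −0.27. None of 25 measured cholesterol synthesis genes differed 2-fold, with a median of −0.04. Hsd17b7 and Idi1 were at −0.87 and −0.85, and Acat2 was at 0.76.

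Lipid droplet coat proteins parted ways. Cidec, which fuses droplets, went from 5.50 to 3.74 and stood at 5.65 at 15 weeks, and another probe gave −1.84 beside −1.77 (probe used at chr6:113374630-113374689, mm9). Plin4, a perilipin, went from 2.43 to 3.49 and stood at 4.89. Plin2, the main droplet coat of hepatocytes, differed by −0.35. Of 23 measured lipid droplet genes these were the only 2 past 2-fold, with a median of −0.12. Cd36, a fatty acid transporter, went from 1.54 to 2.497 and Fabp4, a fatty acid binding protein of fat cells and macrophages, from 3.41 to 2.29. Cidec and Fabp4 are also adipocyte markers, a list of mixed direction as given above. Car3, a carbonic anhydrase of hepatocytes and fat cells and another of its members, went from 7.85 to 9.24 with 8.81 at 15 weeks.

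Stress and signalling genes differed by programme. Asns, asparagine synthetase, a target of the integrated stress response, went from 1.68 to −0.48 and stood at 1.16 at 15 weeks, a 4.49-fold difference between the first pair. Fgf21, also of this list, was past 2-fold as given above, Trib3 differed by −0.63, Cth by −0.41 and Sesn2 by −0.35, and Psat1, of serine synthesis, was above background only at 5 weeks (at least 1.67-fold lower). Ddit4 (0.82), Chac1 (0.41), Ddit3 (0.38) and Atf4 (0.21) were above 0. The list thus had no shared direction, with 7 of 16 measured members below 0 and a median of 0.05. Chaperones of the endoplasmic reticulum were higher by small amounts, 18 of 20 above 0 with a median of 0.38 and none past 2-fold. Creld2, Sdf2l1 and Herpud1, all induced by misfolded protein, differed by 0.85, 0.73 and 0.72, and Hspa5, the chaperone BiP, went from 7.80 to 8.33. Heat shock proteins had a median of 0.11 over 14 measured.

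Of 21 measured immediate early genes, 4 (19.05%) were at least 2-fold higher, beside 0.94% of all measured genes. None was lower, and the median was 0.27. Another 3 were above background only at 10 weeks. Fosb was at least 1.995-fold higher, Egr2 at least 1.34-fold and Zfp36 at least 2.02-fold, the last at a locally bright spot. Fos, part of the transcription factor AP-1, went from −1.40 to 0.74, a 4.39-fold difference (probe at chr12:86817900-86817959, mm9), and Jun, its partner, from 3.92 to 5.09. Atf3 and Dusp1 differed by 1.17 and 1.04. Egr1 and Myc went the other way, by −0.43 and −0.66. Cell cycle genes were mostly above 0, 20 of 22 with a median of 0.24, and only Ccna2, cyclin A2, passed 2-fold, from −3.04 to −1.998, both near the background.

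Acute phase genes past 2-fold were split, with 3 higher and 2 lower. They made up 20% of those measured, beside 2.07% of all measured genes. Steap4, a metalloreductase, went from 0.36 to 1.83, Orm3 from −0.44 to 0.90 and Saa4 from 5.37 to 6.49, while Saa1, the major acute serum amyloid, went from 9.86 to 8.83 and Saa2 was lower by 1.04 at a locally bright spot. Over 25 measured the median was 0.19, and 21 were above 0. Complement and coagulation genes had a median of 0.12 over 27 measured, none past 2-fold.

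Clock output genes, which cycle over the day, were 11 of 12 above 0 with a median of 0.39. Usp2, a rhythmic deubiquitinase, was the only one past 2-fold, from 1.90 to 3.004, and Dbp differed by 0.37 while Nr1d1 differed by −0.29. Genes of the opposite phase had a median of −0.14 over 10 measured, with Arntl, the clock factor BMAL1, at −0.27. The E-box CACGTG was present in 5 of 15 promoters of the clock outputs (33.3%) and in 1978 of 32851 promoters (6.02%). The list was drawn up in part from E-box targets, so this share is no result about these arrays. The matches came from 4 of the 12 genes with a promoter, and Usp2, Dbp and Nr1d1 held none in these windows. Time of day at sampling is not given in the labels.

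The remaining genes with the largest differences belong to none of these groups. Gng4, a G protein γ subunit, went from −2.25 to 0.67, 7.60-fold, and stood at −2.92 at 15 weeks (probe at chr13:13876731-13876790, mm9). Rnase4, a secreted ribonuclease, went from 6.47 to 8.25 and stood at 7.70 at 15 weeks (probe at chr14:51725036-51725095, mm9). Serpina7, thyroxine-binding globulin, had levels of −0.08, 1.35 and 2.64 at 5, 10 and 15 weeks, and Spink1, a trypsin inhibitor, of −1.06, 0.34 and 2.78. Tmem28 and Smok3b were 3.64-fold and 2.73-fold higher, the other Tmem28 probe giving 0.26.

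Among lower genes, Capn11, a calpain, went from 2.80 to −0.03, and Cpe, carboxypeptidase E, from 1.01 to −1.58, with −2.59 by another probe. Cpne5, a copine, was 6.61-fold lower by 1 probe and −0.32 by another. Hrob, a DNA repair factor, was 5.21-fold lower and Cntnap1, an adhesion protein, 3.04-fold. Kiss1, the kisspeptin precursor, went from 3.54 to 1.91, with −1.80 by another probe. Above background only at 10 weeks, Npr1, a natriuretic peptide receptor, was at least 45.5-fold higher, Nell2 at least 20.3-fold and Hcar2, the niacin receptor, at least 13.7-fold. Trpc1, Abca17 and Lrp8 followed at 6.89, 5.55 and 5.20 times at least, and 5 of these 6 probes had 3 or 4 locally bright neighbours, short of the 5 that define such a spot. Tex15 was at least 9.005-fold lower.

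Probes of the same gene often disagreed in size. Of the 52 called genes with more than 1 measured probe, the brightest other probe had the same direction in 39 and was itself past 2-fold in 13, and 17 genes had a probe of opposite direction. The largest called differences outside the named genes were at locally bright spots or had an opposite probe, among them B4galt6 and Mpzl3, 12.9-fold and 12.004-fold higher, and Tmem159 and Slc25a48, 22.9-fold and 13.8-fold lower.

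With normexp background correction, which shrinks the differences of dim genes, 55 of the 76 named genes past 2-fold remained so. Ccl4 differed by 0.47, Igfbp3 by −0.57, Fbln1 by −0.48, Tspan8 by −0.62 and Ccna2 by 0.40 under that setting. Cd7, S100a8, S100a9, Atf3, Akr1d1 and Cyp2c39 lay between 0.76 and 0.96. Gbp6, Usp2, Dusp1, Cxcl1, Serpine2, Mmp2 and Krt23 also no longer reached 2-fold, at 0.83, 0.98, 0.97, 0.95, 0.55, −0.55 and −0.996 in that order, while Acta2 (−2.77), Cyp3a11 (1.41), Ehhadh (−1.66) and Gzma (1.59) were still past 2-fold.

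**Figure D4:**
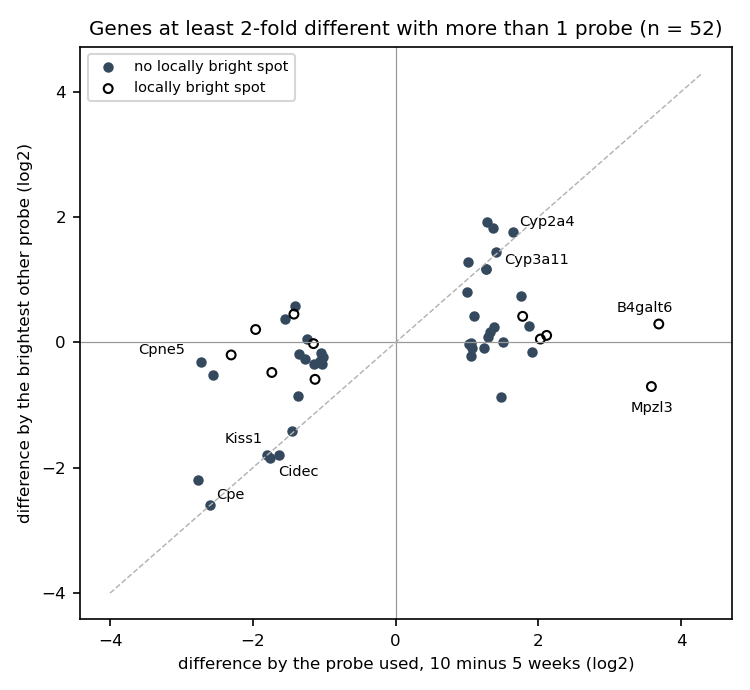
Each point is 1 of the 52 genes at least 2-fold different that have more than 1 measured probe, with the difference by the probe used on the x axis and by the brightest other probe on the y axis (log2, 10 minus 5 weeks); open circles are locally bright spots and the dashed line is equality. Cpe, Cidec, Kiss1, Cyp3a11 and Cyp2a4 lie near the line, while many others lie near 0 on the y axis.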

How the data were processed

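Total RNA from frozen liver was labelled with Cy3 and hybridised to 1-colour Agilent arrays, per the labels' protocols. Per the file headers, Agilent Feature Extraction 10.7.3.1 gave each spot a processed signal, a linear fluorescence intensity with background subtracted. The authors' deposited value table held the same intensity divided by each array's median, so every column has a median of 1. It is thus linear, not centred by gene, and holds levels, not ratios. Flags for spots well above background and for outliers are other values in the scanner files, per the file headers.

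From the scanner files, the deposited processed signal was put on a log2 scale and each array was scaled to the 75th percentile of its non-control spots with Python 3.11.15, numpy 2.4.6 and pandas 2.3.3. Control and outlier spots were left out, spots of a probe were averaged, and a gene took its brightest measured probe. A gene above background on 1 array got a lower bound against the dim probe's value or the lowest value above background on that array, whichever was larger. With R 4.3.3 and limma 3.58.1, normexp correction (offset 50) and quantile normalization of the processed signal were each run as a separate alternative. The scripts were tested on simulated data. Probes were named through RefSeq (GRCm38.p6): of 55681 probes, accessions named 27598, current symbols 3493 and older symbols 393, and for 24197 the scanner file's own name was kept. Probe positions are mm9, the build of the file. What lies there (exon, intron, UTR) was not looked up, since the reference table is of another build.

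Named genes were the 15 largest differences and 6 largest bounds in each direction, with an official symbol, above the 25th percentile of level (differences only), fewer than 5 locally bright neighbours of 44 and no probe of opposite direction, up to 6 list members past 2-fold and a fixed set of liver genes; list members within 2-fold that are named beyond these were chosen after their values were seen. The 56 lists (41 by function, 15 by cell type) overlap, so a gene can count in several. A few list members count in the totals but are not reported by name here. The members and lists were chosen with earlier results of these data known. Lists are described by counts and medians beside all measured genes; with 1 array a time the number of arrays limits every value.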

Additional observations from a re-analysis of the deposited data

How the results depend on the processing

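Scaling to the array median, to the 75th percentile of probes above background, quantile normalization, the authors' deposited value table, the mean of a gene's probes, choosing the probe over 3 arrays, and leaving out locally bright spots each gave counts within 1.5 times the 161 higher and 194 lower genes. Normexp background correction gave 63 higher and 83 lower, no background filter 1684 and 1521, and leaving out the genes below the 25th percentile of level 98 and 94; the last tests fewer genes. Of the 76 called named genes, all 76 kept their direction under each of the 8 settings that gave every one a value, with 73 to 76 still past 2-fold except 55 with normexp; under the 2 settings that left genes out, 67 of 67 did. List medians, taken relative to the median gene, changed sign for the GH and IGF axis (−0.0070 without locally bright spots), adipocytes (−0.94 with no background filter), mesothelium and gallbladder (0.10 without those dim genes) and skeletal muscle (−0.059 with no background filter); the cause was not tested. No paired analysis was possible because each time has 1 array, and no replicate could be left out. Signal over background limits the dim genes most.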

Other observations

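Several further groups had few or no members past 2-fold. Of 18 measured iron and metallothionein genes none differed 2-fold, with Mt2, a zinc-binding metallothionein, at 0.81, Mt1 at 0.49 and Tfrc, the transferrin receptor, at −0.55. Targets of p53 had a median of 0.31 over 12 measured, with Btg2 at 0.69 and Cdkn1a, the cell cycle inhibitor p21, at −0.57. Of 28 measured amino acid and urea cycle enzymes only Asns differed 2-fold, with Cps1, the first urea cycle enzyme, at −0.71, Asl at −0.62 and Otc at 0.09. Pericentral hepatocyte genes had a median of 0.16 over 19 measured and periportal genes of −0.02 over 18, and none of either differed 2-fold. Fetal and imprinted genes had a median of −0.26 over 9 measured, glucocorticoid-responsive genes 0.08 over 17, lysosome genes 0.11 over 25, and apolipoprotein and lipoprotein assembly genes 0.08 over 23.

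Markers of other tissues were mostly not well above background on either array. This held for 12 of 18 pancreas and gut markers and 6 of 10 skeletal muscle markers. Red cell genes had a median of 0.14 over 7 measured, and B and plasma cell genes of 0.10 over 5, with Jchain higher by 1.72 at a locally bright spot. The 6 measured mesothelium and gallbladder markers had a median of −0.14. The PPARγ and lipid uptake list had a median of 0.11 over 15 measured, with Pparg itself at 0.39.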
